A study of Macaca mulatta with 6 samples.

Results

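RNA sequencing libraries of 2 female naive lines were compared with those of 2 male primed lines, all rhesus monkey induced pluripotent stem cells (iPSCs), which are body cells, here fibroblasts, reprogrammed to a pluripotent state. These are 4 of the 6 libraries of the study. The other two come from male naive lines, and their values are set beside the results. The comparison was made over 13253 of the 30246 gene rows of each file, those with a status of OK in all 4 libraries and a level of 1 FPKM or more in at least 2 of them. FPKM counts fragments per kilobase of a transcript relative to all mapped fragments, so levels of different genes are compared per length. The naive lines grew in medium with 15% serum replacement, N2 supplement, 4 ng/ml bFGF, 10 ng/ml LIF, the GSK3 inhibitor CHIR99021 (3 µM), the MEK inhibitor PD0325901 (0.5 µM), the p38 inhibitor SB203580 (10 µM) and the JNK inhibitor SP600125 (10 µM). The primed lines grew in D/F12 with 20% serum replacement and bFGF, with none of the other agents listed. Per the labels, feeder cells were taken away and colonies were collected, so a library is an average over the cells of its colonies. The labels name no donor, reprogramming vector or passage, and nothing in them says that the 2 libraries of a group come from separate donors, so the p-values given cover only the variation among the 4 libraries. Both naive lines compared are female and both primed lines are male, so pluripotent state, culture medium and sex cannot be told apart among these 4 libraries. In bulk RNA, fewer cells of a type and less RNA per cell cannot be told apart either.

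Pluripotent cells can form every tissue of the body and are held in that condition by the transcription factors OCT4 (gene POU5F1), NANOG and SOX2. The naive state resembles the epiblast of the embryo before implantation and the primed state the epiblast after it, when cells prepare to form the germ layers. Mouse naive cells are maintained by LIF, which acts through STAT3, together with inhibition of the kinases MEK and GSK3. MEK activates ERK, which carries FGF signals, and GSK3 marks beta-catenin for breakdown, so its inhibition mimics a WNT signal. Primed primate cells depend on FGF and on Activin or Nodal, ligands that act through SMAD2 and SMAD3.

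The labels "naive" and "primed" are used here as names of the groups. Of 24 naive-associated genes, taken from human and mouse cells, 12 reached the filter, and the summed level of the list was 139 and 157 FPKM in the female naive and 65.9 and 64.4 in the primed libraries. Among the rest KLF17 stood at 0 throughout, while TFCP2L1, DPPA3, DPPA5, DNMT3L, ESRRB, TBX3, SUSD2 and NR0B1 stayed under 1 FPKM in each of the 6 libraries. A listing at 0 does not show absence, because TPI1, an enzyme of glycolysis, was listed at 0 in every library too. POU5F1, a general pluripotency factor, ranged from 109 to 1160 FPKM over the libraries, whereas NANOG, TDGF1 and PRDM14 were under 3 FPKM in both primed libraries. The labelled sex could not be checked, since no row for XIST or for DDX3Y, UTY, USP9Y, KDM5D or ZFY was used here, and the row named EIF1AY lies on chromosome X.

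Depth was similar in the 4 libraries. Fragments estimated from the deposited error bounds (effective fragments) summed to 8294782 and 10013491 in the female naive libraries and 9970137 and 7607125 in the primed libraries, with medians of 191.0 to 242.2 per tested row. The male naive libraries, at 1754857 and 1478692, were shallower. Pearson's r of log2(FPKM + 1) over the 13253 rows, which share libraries and are not independent replicates, was 0.962 between the female naive libraries and 0.95 between the primed libraries. It was 0.874 to 0.915 between a female naive and a primed library, so libraries of a group were more alike than libraries of different groups. For the male naive libraries r was 0.923 to 0.929 with the female naive and 0.907 to 0.927 with the primed libraries.

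Of the 13253 rows, 776 (5.86%) differed at an adjusted p under 0.05 (limma on log2(FPKM + 1), Benjamini-Hochberg over all rows). In the female naive libraries 415 rows (3.13%) rose and 361 (2.72%) fell. For each of the 776 the ranges of the 2 groups did not overlap. The smallest called difference was 0.72 on the log2 scale and the median size was 1.75, while the median difference over all tested rows was -0.034. A rise of 2 or more on that scale was called for 183 rows and a fall of 2 or more for 121. Counts of a gene list cover the members that passed the filter on FPKM, some of them through 1 group alone, and describe those members. For a member that passed through 1 group alone, the filter favours a call with that group higher. Each count is to be read beside the 5.86% called of all rows. Every difference below is female naive minus primed as log2(FPKM + 1), a scale on which the change of a low gene comes out too small. Where 2 pairs of levels are set against each other, the first holds female naive 1 and 2 and the second primed 1 and 2, and a number in parentheses with no unit is the log2 difference. The calls rest on few libraries: the count was 0 without female naive 1 (2128 rows at an unadjusted p under 0.05), 5 without female naive 2, 17 without primed 1 and 599 without primed 2. The differences of the 125 called genes that the rule in the processing notes names moved by at most 1.43 times in each of these. Their direction could not change, because their groups do not overlap.

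**Figure D1:**
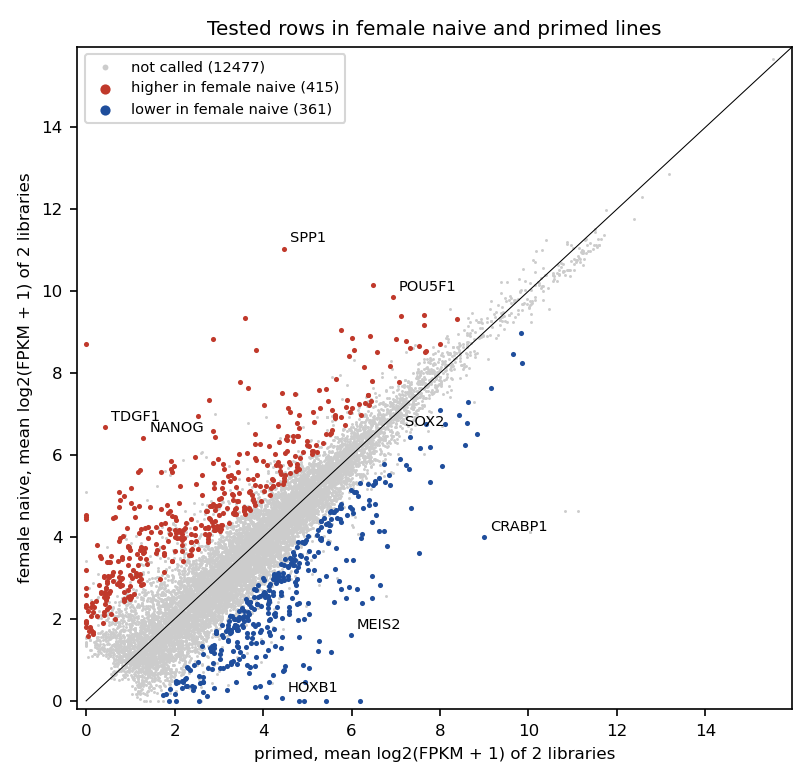
Each point is a tested row, with its mean log2(FPKM + 1) in the primed libraries on the x axis and in the female naive libraries on the y axis. The 415 rows called higher lie above the diagonal and the 361 called lower lie below it, with SPP1 and CRABP1 among the farthest on their sides.

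The 15 largest rises included the secreted proteins SPP1 and PLAU, the Nodal co-receptor TDGF1, the pluripotency factors NANOG and PRDM14 and the FGF-induced genes ETV4 and SPRY4. SPP1 (ENSMMUG00000008793, chromosome 5, 80941184 to 80948955) encodes osteopontin, a secreted ligand of integrins. Coordinates here and below are those of the deposited rows, on a genome build not given in the sources used here. It was at 1856 and 2381 FPKM in the female naive and 11.5 and 37.9 FPKM in the primed libraries, a rise of 6.57 (SE 0.52, adjusted p = 0.0112). The groups were far apart, and the male naive libraries lay between them at 550.2 and 593 FPKM. TDGF1 (ENSMMUG00000003088, chromosome 2, 89946395 to 89949611), a co-receptor for Nodal, was at 93.4 and 111 FPKM in female naive libraries, was listed at 0 in primed 1 and was at 0.818 FPKM in primed 2. It rose by 6.25 (SE 0.33, adjusted p = 0.00571), with 4 effective fragments in primed 2. PLAU, the urokinase-type plasminogen activator, was at 122 and 216 against 2.38 and 12.8 FPKM and rose by 4.57 (SE 0.68, adjusted p = 0.03). For each of these genes both female naive libraries lay above both primed libraries.

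NANOG (row ENSMMUG00000032158, chromosome 11, 8088932 to 8095022) had a level of 73.8 and 95.9 FPKM in the female naive, 0.933 and 2.09 in the primed and 28.7 and 30.7 in the male naive libraries, and rose by 5.12 (SE 0.30, adjusted p = 0.00571). PRDM14, a pluripotency factor that represses differentiation genes, was at 24.3 and 39.4 against 0.52 and 1.13 FPKM and rose by 4.15 (SE 0.33, adjusted p = 0.0112). Both factors lay between 0.52 and 2.09 FPKM in the primed libraries. ETV4, an ETS transcription factor induced by FGF, rose by 4.41 from 1.92 and 10.5 to 88.1 and 169 FPKM. SPRY4, a feedback inhibitor of FGF signalling, rose by 4.41 from 0.517 and 2.61 to 35.2 and 66.9 FPKM, on 1.4 and 6.8 effective fragments in the primed libraries. The 15 largest rises also included ARHGAP36, an inhibitor of protein kinase A, and ITM2A, a membrane protein, both on chromosome X (4.34 and 4.13), the protease inhibitor SERPINB6 (4.31), the chemokine CXCL14 (4.16, on 0 and 6 effective fragments in primed libraries), the receptor EPHA1 (4.0), the matrix glycoprotein THBS1 (3.99) and the secreted neuropeptide precursor VGF (3.94). For CXCL14 the male naive libraries, at 39.7 and 36.8 FPKM, overlapped the female naive values of 29 and 43.

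The 15 largest falls included the retinoic acid-binding CRABP1, the homeobox genes MEIS2 and HOXB1 and the FGF ligand FGF3. CRABP1 (ENSMMUG00000009393, chromosome 7, 57382094 to 57390538), a cytoplasmic protein, was at 10.9 and 20.4 FPKM in the female naive and 408 and 634 FPKM in the primed libraries and fell by 5.0 (SE 0.35, adjusted p = 0.00801). The male naive libraries were at 60.7 and 54.6 FPKM, nearer to the female naive than to the primed values. MEIS2 (ENSMMUG00000006840, chromosome 7, 15216681 to 15431813), a homeodomain partner of HOX proteins, was at 3.62 and 0.989 against 76 and 50.7 FPKM and fell by 4.38 (SE 0.44, adjusted p = 0.0209). GREB1L, a coactivator associated with retinoic acid signalling, was at 8.12 and 2.56 against 102 and 74.1 FPKM and fell by 3.95. In these genes the lowest primed value was several times the highest female naive value. FGF3, an FGF ligand of the early embryo, was at 0.138 FPKM in female naive 1, was listed at 0 in female naive 2 and was at 24.2 and 10.1 FPKM in the primed libraries, a difference of -3.97 (SE 0.43, adjusted p = 0.0214). Also among the 15 were ZNF703, a transcriptional repressor (-4.03), SP5, a WNT target (-4.03), PLAGL1, an imprinted zinc-finger gene (-3.8), FOXB1, a forkhead factor of the neural tube (-3.74), MEOX1, a homeobox gene of the somites (-3.71), MDGA1, a neuronal adhesion protein (-3.68), NTRK2, the receptor of the neurotrophin BDNF (-3.64), and RFX4, a neural transcription factor (-3.6). TUBB2B, a beta-tubulin of neurons, was at 10.7 and 11.5 against 222 and 152 FPKM and fell by 3.93. Its symbol stands on 2 rows and it has a near-identical copy, so its level is uncertain. HOXB1 is described with the HOX genes.

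**Figure D2:**
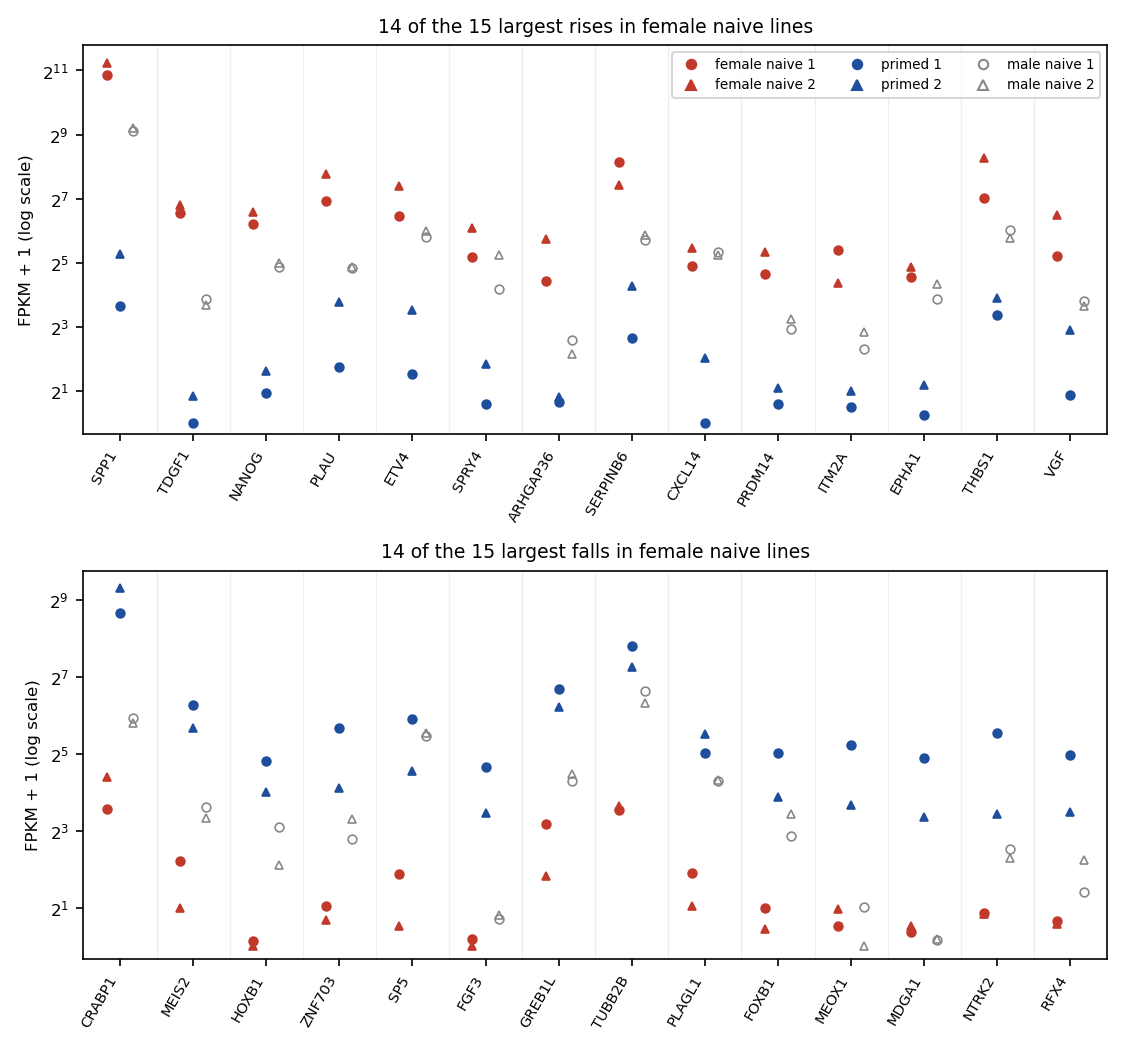
FPKM + 1 on a log axis for 14 of the 15 largest rises and 14 of the 15 largest falls, with filled symbols for female naive and primed libraries, hollow grey symbols for male naive libraries, circles for library 1 and triangles for library 2. In every plotted gene both female naive symbols lie on the same side of both primed symbols, as the rule that chose the genes requires. Both male naive symbols lie between the groups for 23 of the 28 genes, the exceptions being SPRY4, CXCL14, SP5, MEOX1 and MDGA1. Genes chosen for the largest gap between the groups favour such a position for libraries not used in the choice.

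Core pluripotency genes, the factors and markers shared by pluripotent states, were higher in the female naive libraries. Of 24 listed, 22 were tested, 12 rose, 0 fell and 10 were not called, with a median difference of 1.6. POU5F1 was at 738 and 1160.0 FPKM in the female naive, 135 and 109 in the primed and 536 and 571 in the male naive libraries and rose by 2.92 (SE 0.25, adjusted p = 0.0161). DPPA4, a chromatin-associated pluripotency marker, was at 152 and 217 against 21.8 and 19.6 FPKM and rose by 3.08 (SE 0.22, adjusted p = 0.00801). TERF1, which binds telomeres, was at 241 and 222 against 48.3 and 50.2 FPKM and rose by 2.21 (SE 0.14, adjusted p = 0.00801). Each of the 3 was several times higher in both female naive libraries than in either primed library. SOX2 was not called, at 85.3 and 100.5 against 141 and 124 FPKM (-0.51, adjusted p = 0.122). The other called members were L1TD1 (3.2), FOXD3 (2.4), ZSCAN10 (2.75), ZNF281 (1.02), JARID2 (1.66) and DNMT3B, with NANOG, TDGF1 and PRDM14 already given. The list's summed level was 2342 and 2847 FPKM in the female naive and 830.2 and 733 FPKM in the primed libraries.

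Members rose in both the naive-associated and the primed-associated lists. Of 24 naive-associated genes 12 were tested, 5 rose and 0 fell, with a median of 1.01. Besides PRDM14 these were TFAP2C, a transcription factor of naive human cells and trophoblast (8.11 and 9.95 against 0.571 and 1.37 FPKM, a rise of 2.37, adjusted p = 0.0241), KLF5, a Krüppel-like factor (6.76 and 6.09 against 0.293 and 1.17 FPKM, 2.15, adjusted p = 0.0331), the nuclear receptor NR5A2 (2.99 and 6.47 against 0.211 and 0.124 FPKM, 2.23, adjusted p = 0.0372) and NODAL (9.66 and 4.39 against 0.838 and 0.267 FPKM, 2.31, adjusted p = 0.0415). Apart from PRDM14, these stayed at or below 10 FPKM in every library of both groups. NR5A2 and NODAL passed the filter through the female naive libraries alone, so their selection favoured a rise. KLF4, a factor of mouse naive cells, was at 0.953 and 1.42 against 2.06 and 2.19 FPKM (-0.52, adjusted p = 0.28), and ZFP42 was at 35.8 and 22.1 against 14.8 and 14.5 FPKM (0.9, adjusted p = 0.102). Rises in the naive-associated list numbered 4 under quantile normalization, 3 with a pseudocount of 0.1 and 0 with no filter on FPKM. They numbered 6 in the fit over all 6 libraries and 6 without a trend of variance on level.

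Of 24 primed-associated genes 21 were tested, 5 rose and 0 fell, with a median of 0.47. DNMT3B, a de novo DNA methyltransferase, was at 209 and 177 FPKM in the female naive, 33.4 and 41.9 in the primed and 107 and 114 in the male naive libraries and rose by 2.33 (SE 0.18, adjusted p = 0.0112). ETV4, DUSP6, FGF2 and DNMT3A also rose, although the list names them for the primed state. The count of rises was 4 under median-of-ratios scaling, 3 under upper-quartile scaling, quantile normalization and a pseudocount of 0.1, and 2 without a trend of variance on level. Falls appeared in the fit over all 6 libraries (3), with precision weights from effective fragments (1), without rows spanning under 1500 bp (1) and without primed 2 (1). OTX2, a transcription factor of the primed epiblast and later the forebrain, was at 72.2 and 18.3 FPKM in female naive libraries, was listed at 0 in primed 1 and was at 8.21 FPKM in primed 2 (3.63, adjusted p = 0.114). ZIC2, a zinc-finger factor of primed cells, was at 71.2 and 58.1 against 93.3 and 104 FPKM (-0.61, adjusted p = 0.096). SFRP2, a secreted WNT modulator, was at 154 and 106 against 132 and 124 FPKM (adjusted p = 0.994), with overlapping groups, and SOX11 was at 2.72 and 6.63 against 15.1 and 24.4 FPKM (-1.92, adjusted p = 0.0607).

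**Figure D3:**
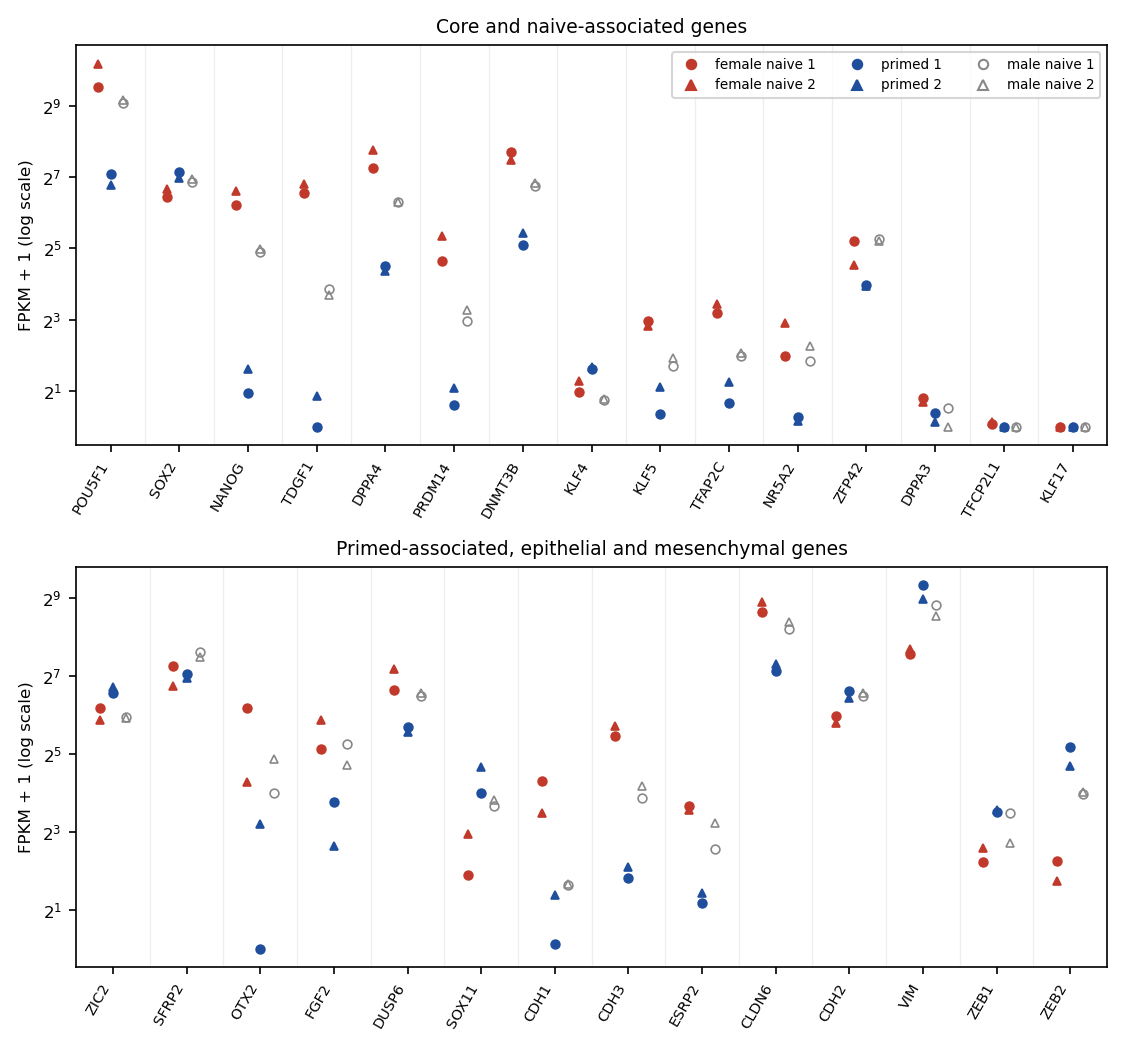
FPKM + 1 on a log axis for core pluripotency, naive-associated, primed-associated, epithelial and mesenchymal genes in each library, with filled symbols for female naive and primed and hollow grey symbols for male naive libraries. POU5F1, NANOG and TDGF1 show separated groups, while SOX2 and KLF4 lie close together and DNMT3B is higher in the female naive libraries.

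More genes that respond to FGF and ERK rose than fell in the female naive libraries, whose medium held a MEK inhibitor. Of 25 ERK targets and feedback genes 21 were tested, 9 rose and 1 fell, with a median of 1.45. MYC, a growth-promoting transcription factor, was at 37 and 59.4 against 1.22 and 3.7 FPKM and rose by 3.89 (SE 0.43, adjusted p = 0.0215). DUSP6, a phosphatase that inactivates ERK and is induced by it, was at 98.4 and 143 against 51.1 and 46.5 FPKM and rose by 1.27 (SE 0.22, adjusted p = 0.0385). IL17RD, a membrane inhibitor of FGF signalling, was at 32.7 and 43.3 against 14.2 and 12.1 FPKM and rose by 1.45. These 3 had no overlap between the groups, and the male naive libraries were at 18.6 and 17.4, 88.7 and 94.6 and 53.5 and 62.5 FPKM in the same order. FOSL1, an AP-1 subunit, rose by 2.92 (7.16 and 12.5 against 0.182 and 0.639 FPKM), ETV5 by 2.78, PHLDA1 by 3.74 and DUSP5 by 1.92. EPHA4, the member that fell, was at 4.75 and 3.65 against 30.8 and 22.6 FPKM, a difference of -2.41 (SE 0.25, adjusted p = 0.0209).

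The FGF ligands changed in both directions: of 18 ligands and receptors 15 were tested, 3 rose and 2 fell. FGF2, the ligand that is also added to both media as bFGF, was at 34 and 57.2 against 12.7 and 5.23 FPKM and rose by 2.29 (SE 0.44, adjusted p = 0.0473). FGF1 was at 9.01 and 12.6 FPKM in female naive libraries, was listed at 0 in primed 1, was at 0.534 FPKM in primed 2 and rose by 3.24. FGF16, on chromosome X, was at 3.51 and 4.27 FPKM in female naive libraries and was listed at 0 in the 2 primed and the 2 male naive libraries. FGF3 and FGF19 fell, the latter by 1.56 from 10.9 and 6.93 to 2.52 and 2.08 FPKM. FGF1, FGF16 and FGF3 each passed the filter through 1 group alone, so their selection favoured the direction of their call. No receptor gene of the list was called.

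Nodal and TGF-beta signalling, which supports NANOG in primed primate cells, showed rises in ligand, co-receptor, feedback and target genes. Of 28 genes 25 were tested, 8 rose and 1 fell, with a median of 0.92. The ligand NODAL and its co-receptor TDGF1 are given above. The inhibitory SMAD7, induced by the pathway, was at 9.24 and 14.1 against 1.35 and 1.59 FPKM and rose by 2.33 (SE 0.29, adjusted p = 0.023). SKIL, a co-repressor of SMADs, was at 14 and 15.8 against 3.22 and 2.81 FPKM and rose by 1.98, and PMEPA1, a feedback inhibitor, was at 9.31 and 11.4 against 1.16 and 1.49 FPKM and rose by 2.28. These 3 are pathway inhibitors, and each was several times higher in both female naive libraries. FST, which encodes the Activin antagonist follistatin, was at 75.4 and 69.7 against 253 and 188 FPKM and fell by 1.57 (SE 0.19, adjusted p = 0.023), while the male naive libraries, at 253 and 256 FPKM, were at or above the primed values.

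Of 18 BMP ligands and targets 16 were tested and 2 rose: BMP4, at 10.5 and 15.1 against 2.72 and 2.01 FPKM (2.02, adjusted p = 0.0267), and BAMBI, a decoy receptor, at 21.5 and 26.2 against 4.16 and 7.67 FPKM (1.89, adjusted p = 0.035). Of 17 genes of the LIF and STAT3 pathway 14 were tested and 1 was called, beside the 5.86% called of all rows. Of the 2 media, the naive one held LIF. That gene was PIM2, a kinase on chromosome X, at 28.7 and 44.1 against 7.45 and 5.61 FPKM (a rise of 2.29, adjusted p = 0.023). The receptor LIFR was at 7.72 and 4.44 against 1.62 and 3.15 FPKM (1.06, adjusted p = 0.139).

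WNT target genes were compared between medium with and without a GSK3 inhibitor. Of 26 listed, 19 were tested, 1 (BAMBI) rose and 2 fell, with a median of -0.61. AXIN2, a feedback inhibitor that beta-catenin induces, was at 5.28 and 3.45 FPKM in the female naive, 76.4 and 29.2 in the primed and 34.4 and 33.9 in the male naive libraries and fell by 3.19 (SE 0.47, adjusted p = 0.0297). SP5, a transcription factor induced by WNT, was at 2.66 and 0.453 against 59.1 and 22.7 FPKM and fell by 4.03 (SE 0.60, adjusted p = 0.0306), with male naive libraries at 43.7 and 45.6 FPKM. For AXIN2 and SP5 the male naive values lay within the primed range, away from the female naive values. LEF1, a partner of beta-catenin, was at 2.01 and 1.42 against 37.3 and 7.63 FPKM (-2.75, adjusted p = 0.0764). Among 22 tested WNT ligands and receptors 1 rose and 3 fell. The receptor FZD10 was at 2.53 and 1.44 against 41.1 and 17.7 FPKM and fell by 3.26 (SE 0.44, adjusted p = 0.0254), the receptor FZD2 fell by 2.43 from 57.5 and 57 to 12.9 and 7.36 FPKM, and the ligand WNT8A fell by 2.3 from 12.9 and 20.0 to 3.96 and 1.44 FPKM. SFRP1, a secreted WNT antagonist, was at 290.5 and 281 against 97.4 and 137 FPKM and rose by 1.3 (SE 0.20, adjusted p = 0.0323).

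Hedgehog signalling, which patterns the neural tube and limb, had 8 tested genes of 14, of which 3 fell and 0 rose. PTCH1, the Hedgehog receptor and a target of the pathway, was at 3.93 and 3.73 against 16.9 and 15.6 FPKM and fell by 1.84 (SE 0.21, adjusted p = 0.022). The co-receptor BOC fell by 2.93 from 40.7 and 25 to 4.51 and 2.4 FPKM, and the transcription factor GLI3 fell by 2.47 from 34.6 and 15.4 to 3.98 and 2.82 FPKM. In the Notch list 10 of 22 genes were tested and 1 was called, beside the 5.86% called of all rows. It was DLL1, a ligand, which fell by 2.77 (1.48 and 0.338 against 16.6 and 7.78 FPKM, adjusted p = 0.0364).

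Retinoic acid, a vitamin A derivative, induces HOX genes of the hindbrain and opposes pluripotency. Of 19 genes of its transport, synthesis and response 12 were tested, 4 fell and 1 rose, with a median of -0.36. CRABP2, which carries retinoic acid to the nucleus, was at 293 and 313 against 1046 and 806 FPKM and fell by 1.6 (SE 0.18, adjusted p = 0.022). STRA6, the cell-surface retinol transporter, fell by 1.31 from 18.6 and 19 to 7.58 and 6.43 FPKM. These binding and transport genes were lower in both female naive libraries than in either primed library. DHRS3, which converts retinal back to retinol, was at 5.92 and 8.25 against 0.962 and 1.18 FPKM and rose by 1.95. The receptor RARB was at 0.877 and 0.982 against 29.5 and 6.8 FPKM (-3.0, adjusted p = 0.0571), and CYP26A1, which degrades retinoic acid, was at 62 and 27.6 against 3.96 and 23.2 FPKM (1.96, adjusted p = 0.179).

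HOX genes, which give cells their position along the body axis, were at low levels in the female naive libraries. Of 38 HOX genes 32 had a row, 7 were listed at 0 in all 4 libraries and 4, all of them anterior HOX genes, reached the filter. The 4 were called lower, and 3 of them passed the filter through the primed libraries alone, so their selection favoured that direction. HOXB1 (ENSMMUG00000022212, chromosome 16, 32758427 to 32759792) was at 0.101 FPKM in female naive 1, was listed at 0 in female naive 2 and was at 27.4 and 15.2 FPKM in the primed and 7.55 and 3.37 in the male naive libraries (-4.35, SE 0.34, adjusted p = 0.0112). HOXA2 was at 0.394 and 0.13 FPKM in the female naive, 14.6 and 11.7 in the primed and 1.47 and 1.31 in the male naive libraries (-3.49, SE 0.27, adjusted p = 0.0112), so the male naive level was far below the primed one and above the female naive one. HOXA3 was at 0.186 FPKM in female naive 1, was listed at 0 in female naive 2 and was at 10.0 and 3.01 FPKM in the primed libraries (-2.61, adjusted p = 0.0492). Under each of the 3 other scalings, 3 of the 4 were called.

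Among other homeobox genes 20 of 30 were tested, 3 fell and 1 rose, and 6 of the 20 passed the filter through a single group. Besides MEIS2 and MEOX1, IRX3, a neural patterning gene, fell by 2.13 from 31.3 and 18.4 to 5.66 and 3.95 FPKM. TGIF1, a TALE co-repressor of SMADs and retinoid receptors, was at 155 and 169 against 52.2 and 66.2 FPKM and rose by 1.44 (SE 0.18, adjusted p = 0.023). Markers of neural and ectodermal cells were lower in the female naive libraries: of 25 listed 15 were tested, 5 fell and 0 rose, with a median of -1.83. These were CRABP1, the neuronal microtubule-associated MAP2 (5.6 and 3.19 against 32.7 and 22.4 FPKM, a difference of -2.42), the zinc-finger factor ZNF521 (2.99 and 1.2 against 23.7 and 17.9 FPKM, -2.86), the neurofilament NEFL (2.5 and 1.79 against 11.7 and 11.1 FPKM, -1.98) and the adhesion molecule NCAM1 (4.58 and 9.02 against 30.5 and 21.3 FPKM, -1.83). The summed level of the whole neural list was 242 and 335 FPKM in the female naive and 757 and 978 in the primed libraries. Without CRABP1 it was 231 and 314 against 349.8 and 344 FPKM, so CRABP1 made up most of the gap. The male naive libraries, at 379 and 350 FPKM without CRABP1, were at or above the primed values. The summed neural level was lower in the female naive group along with the retinoid, HOX, Hedgehog and neuronal genes that fell. Its part in them was not tested. Within the primed pair the whole sum was higher in primed 2, whereas without CRABP1 the libraries were close (349.8 FPKM in primed 1 and 344 in primed 2). The whole sum includes CRABP1, itself among the retinoid genes that fell.

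**Figure D4:**
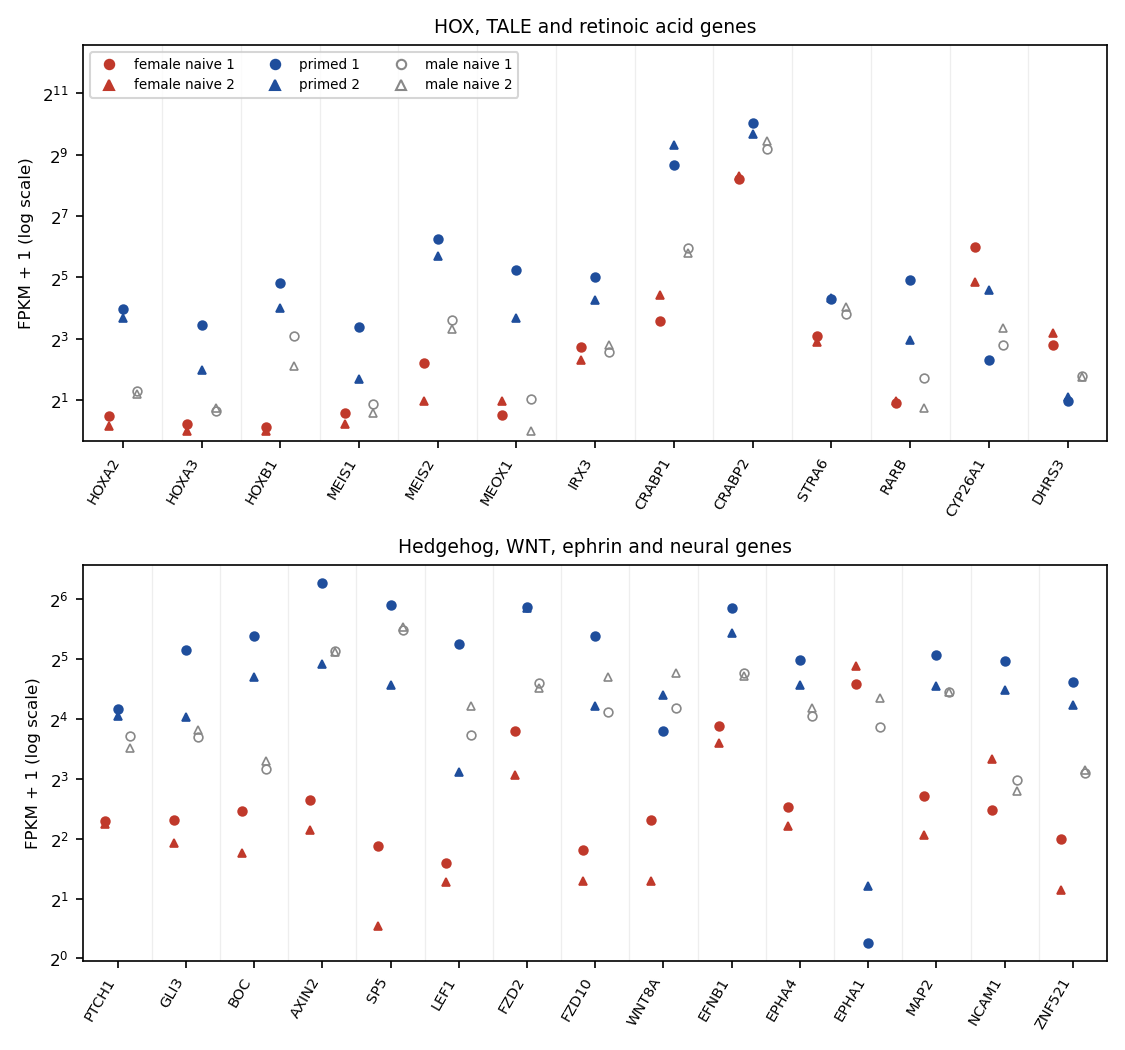
FPKM + 1 on a log axis for HOX, homeobox, retinoic acid, Hedgehog, WNT, ephrin and neural genes in each library, with filled symbols for female naive and primed and hollow grey symbols for male naive libraries. AXIN2 and SP5 in male naive libraries lie at the primed level, while MEIS2, HOXA2 and CRABP1 in male naive libraries lie between the groups.

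Guidance receptors and their ligands divided by member. Of 19 Eph receptors and ephrins 17 were tested, 1 rose and 5 fell, with a median of -0.6. The receptor EPHA1 was at 22.9 and 28.6 FPKM in the female naive, 0.201 and 1.31 in the primed and 13.6 and 19.4 in the male naive libraries and rose by 4.0 (SE 0.37, adjusted p = 0.0197). The membrane ligands EFNB1 (13.8 and 11.1 against 57.2 and 42.4 FPKM, a difference of -1.91), EFNB2 (14.9 and 16.2 against 38.4 and 34.7 FPKM, -1.18), EFNB3 (2.25 and 2.07 against 10.2 and 7.19 FPKM, -1.6) and EFNA4 (6.44 and 4.73 against 18.1 and 15.3 FPKM, -1.43) fell, as did the receptor EPHA4. All 3 B-type ephrins thus fell, while 1 A-type receptor rose and 1 fell. Of 39 semaphorins, plexins, slits, netrins and their receptors 35 were tested, 4 rose and 2 fell. The secreted SEMA3A rose by 1.93 and SEMA3F by 2.09, the membrane-bound SEMA6A by 2.04, and the netrin receptor UNC5B by 2.85 (14.1 and 22.8 against 0.968 and 2.53 FPKM). SEMA5A fell by 2.95 (2.45 and 0.828 against 24 and 14 FPKM) and the receptor PLXNA3 fell by 1.13.

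Epithelial adhesion genes were higher in the female naive libraries. Of 36 listed 30 were tested, 7 rose and 0 fell, with a median of 1.52. CDH1, the gene of E-cadherin, the main adhesion protein of epithelial cells, was at 18.8 and 10.1 FPKM in the female naive, 0.0805 and 1.58 in the primed and 2.12 and 2.16 in the male naive libraries and rose by 3.15 (SE 0.51, adjusted p = 0.0347). CDH3, P-cadherin, was at 42.9 and 51.4 against 2.5 and 3.26 FPKM and rose by 3.64 (SE 0.22, adjusted p = 0.00613). CLDN6, a tight-junction protein of pluripotent cells, was at 402 and 482 against 140.2 and 159 FPKM and rose by 1.55. Of these 3 only CLDN6 was above 100 FPKM in both groups. ESRP1 and ESRP2, splicing factors of epithelial cells, rose by 2.62 and 2.32, OVOL2, a repressor of mesenchymal genes, by 2.28, and PKP2, a desmosome protein, by 1.48.

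Of 28 tested mesenchymal and matrix genes 1 rose and 2 fell, beside the 5.86% called of all rows. The median of the list was -0.14, and it was -0.79 without primed 1 and 0.56 without primed 2, the library with the higher COL1A1 and FN1 levels. ZEB2, a repressor of CDH1, was at 3.79 and 2.35 against 35.1 and 24.7 FPKM and fell by 2.93 (SE 0.29, adjusted p = 0.0209), and VIM, an intermediate filament protein, was at 187 and 207 against 642 and 501 FPKM and fell by 1.52 (SE 0.18, adjusted p = 0.022). THBS1 was the member that rose, and CDH2, N-cadherin, was at 61.6 and 54.7 against 97.5 and 85.5 FPKM (-0.64, adjusted p = 0.0775). Of 14 YAP and TEAD genes 13 were tested and 3 rose: CTGF (341 and 824 against 52.6 and 53.9 FPKM, 3.29), CYR61 (350.1 and 656 against 70.7 and 102 FPKM, 2.48), both matricellular proteins, and TEAD3 (1.11). Of 20 tested AP-1 and stress kinase genes 3 rose, CYR61, FOSL1 and IER2 (1.05), in libraries whose medium held JNK and p38 inhibitors. The integrin subunit ITGAV, a receptor for osteopontin, was at 25.4 and 25 against 5.84 and 11 FPKM and rose by 1.54 (adjusted p = 0.0492), and TIMP3, a metalloprotease inhibitor, rose by 2.81 from 3.14 and 6.52 to 46.7 and 31 FPKM.

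Regulators of chromatin changed in single members. Of 18 tested genes of DNA methylation and demethylation 3 rose and 1 fell. DNMT3A was at 47 and 62.7 against 27.7 and 24.7 FPKM and rose by 1.03 (adjusted p = 0.0492), ZFP57, which protects imprints, rose by 1.41 (12.5 and 15.5 against 4.48 and 4.73 FPKM), and IDH2, a mitochondrial enzyme that supplies the cofactor of demethylation, fell by 1.19 (54.4 and 63.8 against 152 and 122 FPKM). Of 27 tested Polycomb and histone methylation genes 1 rose and 3 fell, and the falls numbered 2 under median-of-ratios scaling or a pseudocount of 0.1 and 1 without a trend of variance on level. EZH2, which trimethylates lysine 27 of histone H3, was at 32.4 and 33.8 against 67.8 and 63 FPKM and fell by 0.96 (SE 0.15, adjusted p = 0.0346), with male naive libraries at 73.5 and 67.6 FPKM, within or above the primed range. CBX2 and CBX8, subunits that bind this mark, fell (-0.87 and -1.69), and JARID2, a partner of EZH2, rose by 1.66 from 25.2 and 28.7 to 68.1 and 112 FPKM. Of 16 tested imprinted genes 2 rose and 2 fell: PLAGL1 was at 2.74 and 1.06 against 31.4 and 44.9 FPKM, L3MBTL1 fell by 1.43, SNRPN rose by 1.28 from 170.2 and 150.3 to 368 and 414 FPKM, and PHLDA2 rose by 2.49 (adjusted p = 0.04).

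In glycolysis 1 of 23 tested genes rose, the lactate transporter SLC16A1 (132 and 110.3 against 52.1 and 54 FPKM, 1.17), and 1 fell, the enolase ENO3 (97.7 and 118 against 273 and 279 FPKM, -1.35). In oxidative phosphorylation 0 of 29 tested genes were called, with a median of 0.2 and 5 at an unadjusted p under 0.05. Cytosolic ribosomal protein genes have many near-identical copies, so their levels are uncertain. Among 62 tested 0 were called, although 57 were below 0, with a median of -0.27 that ranged from -0.32 under upper-quartile scaling to -0.13 under quantile normalization, and 5 had an unadjusted p under 0.05. For oxidative phosphorylation and ribosomal proteins the share called by limma was below the 5.86% of all tested rows. For glycolysis it was above, as it was for serine synthesis and ATF4, but on too few calls to set these lists apart. The remaining metabolic and cell cycle lists held 4 called genes, which fell, among them PSAT1, of serine synthesis (-0.93), DDIT4, an inhibitor of mTOR (11.8 and 8.22 against 49.6 and 85 FPKM, -2.6) and the cell cycle factor E2F2 (1.44 and 1.6 against 11.8 and 7.73 FPKM, -2.07). In the cholesterol list 1 of 22 tested genes was called, in serine synthesis and ATF4 2 of 22, in the cell cycle 1 of 34, in hypoxia 0 of 14 (2 at an unadjusted p under 0.05) and in lipid transport 0 of 14 (5 at an unadjusted p under 0.05).

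Of 25 tested p53 targets and apoptosis genes 3 rose: SFN, an epithelial 14-3-3 protein (23 and 19.1 against 0.392 and 0.667 FPKM, 3.85), PMAIP1, a BH3-only protein (68.9 and 62.9 against 8.45 and 15.4 FPKM, 2.42), and CASP8 (1.98). Of 12 tested interferon genes 3 rose, among them IFITM1, a membrane protein abundant in human pluripotent cells (835 and 1547 against 43.1 and 179 FPKM, 3.67) and BST2 (1.82). The IGF system had 3 rises in 14, IGFBP3 (2.46), IGFBP6 (3.62) and IRS1 (1.44), and the heat shock list 2 in 15, HSPA4 (0.86) and HSPB8 (2.82). Under upper-quartile scaling neither the IGF nor the heat shock list had a call. Among lists not yet counted, integrins and their ligands had 2 rises in 13 (SPP1 and ITGAV), the plasminogen system and proteases 3 rises in 13 (among them PLAU and TIMP3), telomere genes 1 rise in 13 (TERF1) and SOX factors 1 fall in 10, of SOX5 (-1.59, adjusted p = 0.0415). In a list of this size 1 call is close to what the 5.86% called of all rows would give.

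**Figure D5:**
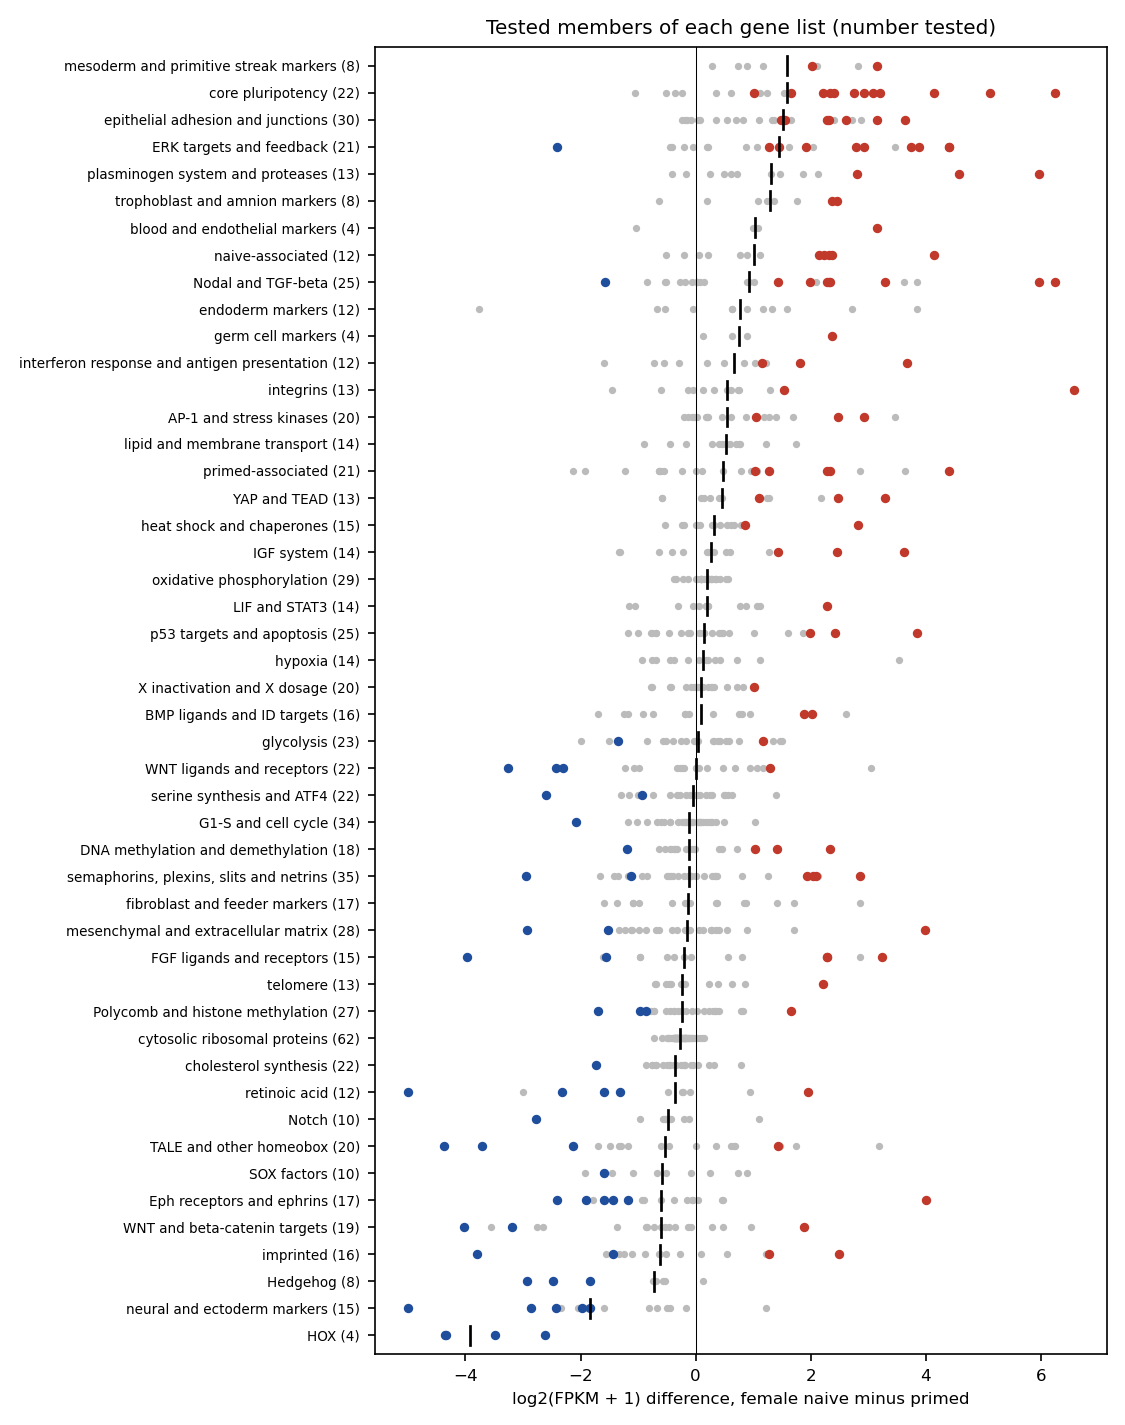
Differences of tested members of each gene list on the log2(FPKM + 1) scale, 1 point per gene, with genes called higher in red, genes called lower in blue, genes not called in grey and the list's median as a bar. Core pluripotency, ERK target and epithelial lists have medians of 1.6, 1.45 and 1.52, neural markers a median of -1.83, and the ribosomal and oxidative phosphorylation lists lie close to 0 with 0 called genes.

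Markers of other cell types that a culture could hold were summed in each library. Fibroblast and feeder markers had 0 of 17 tested genes called by limma (4 at an unadjusted p under 0.05), with sums of 1626 and 2043 FPKM in the female naive and 699 and 1840.3 in the primed libraries. Mesoderm and primitive streak markers had 2 rises in 8, the VEGF receptor KDR (12.2 and 8.45 against 0.219 and 0.308 FPKM, 3.15, adjusted p = 0.0194) and BMP4, with sums of 73.2 and 37.4 against 10.0 and 17.7 FPKM. KDR passed the filter through the female naive libraries alone, so its selection favoured a rise. Endoderm markers had 0 calls in 12 (5 at an unadjusted p under 0.05), with sums of 245 and 49.9 against 116 and 54 FPKM. Trophoblast and amnion markers had 2 rises in 8, TFAP2C and IGFBP3, both also in other lists, with sums of 100.3 and 100.1 against 53.9 and 51.4 FPKM. Germ cell markers had 1 rise in 4, TFAP2C, with sums of 39.5 and 17.9 against 11.8 and 15.2 FPKM. Blood and endothelial markers had 1 rise in 4, KDR, with sums of 23.2 and 19.5 against 6.51 and 14.2 FPKM, and the defining blood genes GATA1, HBA1, HBB and HBE1 were listed at 0 in all 4 libraries. The mesodermal, trophoblast, germ cell and blood sums were higher in both female naive libraries than in either primed library, and their part in the results above was not tested.

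Libraries of a group differed from each other in some genes, chosen after their values were seen. In female naive 1 and 2, CER1, a secreted Nodal and BMP antagonist of the endoderm, was at 133 and 17.1 FPKM, EOMES, a T-box factor of the primitive streak, at 16.2 and 3.26, HESX1, a forebrain homeobox gene, at 31.6 and 7.51, and GSC at 15.3 and 2.16. OTX2, CER1, EOMES, HESX1 and GSC were each higher in female naive 1 than in female naive 2, and none was called. In primed 1 and 2, the matrix genes COL1A1 and LUM were at 9.24 and 135 and 0.111 and 19.9 FPKM, fibronectin (FN1) at 39.3 and 354, and the keratin KRT18 at 9.06 and 72.9. The matrix and keratin genes were higher in primed 2. A gap of 4-fold or more on FPKM + 1 separated the libraries of the group for 107 tested rows in female naive and 167 in primed.

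Chromosome X was examined because the groups differ in labelled sex. Of 513 tested rows on X, 31 were called (6.04%), 18 higher and 13 lower, with a median difference of -0.065. On the autosomes 721 of 12329 were called (5.85%), 385 higher and 336 lower, with a median of -0.033. The share on X was close to the share on the autosomes. Of 29 genes of X inactivation and X dosage 20 were tested and 1 was called, TXLNG, which escapes inactivation in humans, at 38 and 33.1 against 16.1 and 18 FPKM (a rise of 1.02, adjusted p = 0.0404), with male naive libraries at 44.9 and 48.2 FPKM, above the female values.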

How the data were processed

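RNA of 6 rhesus monkey iPSC libraries was sequenced, 2 each of male naive, female naive and primed lines. Sample titles and the gender label gave each library its group and number. Per the submitters' processing notes TopHat 1.3.0 was used, and per the file headers the tables are laid out as Cufflinks gene tracking. Genome build, annotation and quantifier version were not given in the sources used here. The authors deposited FPKM with error bounds for 30246 rows, per the file headers. None of these sources states a scaling between libraries. Deposited starts count from 0 and were written from 1. The files gave 22292 rows a symbol, and 728 more were named from a table of gene names.

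The bounds lie 2 SD from FPKM, and effective fragments are the squared ratio of FPKM to that SD. Where they came to under 50, 56.5% to 62.6% of the values in a library fell within 0.05 of a whole number. These estimates cover counting error only.

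The 4 libraries were fitted as log2(FPKM + 1) with limma 3.58.1 (R 4.3.3) and a mean-variance trend, with 2 residual degrees of freedom. Rows were called at a two-sided Benjamini-Hochberg adjusted p under 0.05 over 13253 rows. An exact permutation of 2 against 2 cannot go below p = 0.333 for a single gene and was not used. Of the rows, 39 had another status in any of the 4 files, and 9 of these reached the filter and were left out. In simulated data over 13253 rows the fit recovered 45 and 42 of 50 rows changed by 2 and -2 on the log2 scale. It recovered 12 and 11 of 50 changed by 1 and -1, and called 17 of 13053 unchanged rows. Those 17 were a larger share of its calls than the threshold of 0.05 aims at. The simulation used counting noise and a preset added spread, equal for all rows and not estimated from these libraries. It therefore does not show how many real changes were recovered here.

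The comparison, its members and the 48 gene lists were chosen with earlier results of these data known, and some lists share members. Named genes are, first, the 15 largest changes each way over called rows whose groups do not overlap. These rows also have a symbol, span at least 300 bp and average at least 5 FPKM in their higher group. Named genes are, next, the 5 members of lowest p of every list described, with a fixed set of state markers. Other list members named, and TPI1, were chosen after their values were seen. A few genes are not reported here, though the counts and medians of their lists include them. A symbol on several rows was read from the row with the highest mean. The alternatives tried were other scalings, filters, pseudocounts, weights, blocks, fits and libraries left out.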

Additional observations from a re-analysis of the deposited data

How the results depend on the processing

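The 776 calls (415 higher, 361 lower, 31 on chromosome X) changed by over 1.5 times with the settings given first and with the crossed pairing given further on. The fit over all 6 libraries gave 1607 calls (819 higher, 788 lower, 67 on X), of which 758 were among the 776. Precision weights from effective fragments gave 1172 (571 lower, 49 on X). With no filter on FPKM there were 19 (10 higher, 9 lower, 0 on X, with 4143 rows at an unadjusted p under 0.05). Leaving out 1 library in turn gave 0 to 599 calls, 0 to 374 higher, 0 to 225 lower and 0 to 21 on X, with 1 residual degree of freedom and a lone library assumed to vary like the other group. The cause of these shifts was not tested. Apart from these and the crossed pairing, the settings gave 597 to 995 calls, the latter without rows spanning under 1500 bp. Upper-quartile scaling turned the split to 357 higher and 387 lower, and no scaling moved the median of all rows by over 0.1. With the library number as a replicate block the count was 744 (433 higher, 311 lower, 23 on X), with 2 falls in the primed-associated list and 1 in place of 3 in the Polycomb list. Same-numbered libraries did not deviate together (r = -0.281), and the labels do not say that a number marks a shared batch, so the numbers give a label only. The crossed pairing, added after the data were seen, gave 2027 calls (1056 higher, 971 lower, 84 on X). The 125 named called genes kept their direction in every setting that tested them. Only the 3 scalings could have changed it, as the groups of each gene do not overlap. Of the 125, 114 to 120 stayed called under the 3 scalings, 102 with a pseudocount of 0.1, 99 without the trend and 6 without the filter. Without the trend the IGF and heat shock lists had 0 calls, the interferon list 1 rise in place of 3 and the DNA methylation list 2 rises and 0 falls. Without 1 library 0 (female naive 1), 0 (female naive 2), 5 (primed 1) and 92 (primed 2) stayed called. Depth limits the low genes, such as those under 10 effective fragments in the primed libraries.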

Other observations

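Among called genes outside the lists, the following were chosen after their values were seen. VCL, the vinculin of focal adhesions, was at 267 and 432 FPKM in the female naive, 55.3 and 66.4 in the primed and 189 and 181 in the male naive libraries, a rise of 2.47 (SE 0.26, adjusted p = 0.0209). ZYX, zyxin, was at 105 and 188 against 22.4 and 22.6 FPKM and rose by 2.59 (SE 0.29, adjusted p = 0.022), and PXN, paxillin, was at 56.3 and 101 against 11.4 and 14.8 FPKM and rose by 2.45 (SE 0.31, adjusted p = 0.024). Both groups were apart for each of these genes. CNN1, CALD1 and VASP, which bind actin, rose by 2.7, 1.94 and 1.87. HAS2 and HAS3, which make hyaluronan, rose by 3.29 and 2.59.

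Among called genes outside the lists that were lower, also chosen after their values were seen, CNTFR, the receptor of ciliary neurotrophic factor, was at 8.69 and 6.12 against 97.4 and 78.7 FPKM and fell by 3.41 (SE 0.23, adjusted p = 0.00801). PRTG, an adhesion protein of the early neural tube, was at 8.86 and 2.3 against 68 and 48.5 FPKM and fell by 3.36 (SE 0.53, adjusted p = 0.033). WLS, which carries WNT ligands to the cell surface, was at 28.3 and 9.57 FPKM in the female naive, 105 and 107 in the primed and 85.9 and 80.3 in the male naive libraries and fell by 2.61 (SE 0.47, adjusted p = 0.0411). The same direction was called for the co-receptors RGMA and RGMB (-2.1 and -3.17), the microtubule protein MAP1B (-2.4), the cartilage collagen COL2A1 (-2.79) and the secreted growth factor PTN (-2.32).

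Short rows took part in the calls: 80 of the 776 called rows span under 1500 bp and 20 span under 300 bp, out of 1432 and 265 tested rows of those lengths. Rows under 300 bp held 16.0% and 11.7% of the summed FPKM in the female naive and 9.3% and 14.9% in the primed libraries.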
